A study of Mus musculus with 28 samples.

Results

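Sugar breakdown and the response to low oxygen were followed through 38 genes in regulatory T cells (Tregs) of mice bearing B16 melanoma. The genes were chosen by name, but with earlier results of these data known, so the counts below are not those of a blind list. They are 2 glucose transporters, 14 enzymes of glycolysis, 2 PFKFB enzymes, 5 genes that handle lactate and pyruvate, 3 genes of the oxygen sensor and 12 further genes known to be induced in low oxygen. Of the 38, 35 had a row among the 13103 genes of the deposited table, and all 35 were among the 12512 genes tested. Pgam1, Mxi1 and Higd1a had no row and were not analysed here.

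The mice carried a Foxp3-GFP reporter, so that green fluorescence marks cells that express Foxp3, the transcription factor that defines Tregs. B16, a melanoma cell line, was placed in the skin of all of them, and tumors and spleens were taken 7 to 10 days later. GFP-positive cells stained for CD45, CD3 and CD4 were sorted by flow cytometry into a fraction with high surface OX40, labelled OX40plus, and a fraction with low surface OX40, labelled OX40minus. OX40, a receptor of the TNF receptor family that helps to activate T cells, is the product of Tnfrsf4. The 28 libraries were pairs from 14 samples: tumor OX40plus and tumor OX40minus Tregs of 4 mice each, and spleen OX40plus and spleen OX40minus Tregs of 3 mice each. No group came from mice without a tumor, so the spleens are those of tumor-bearing animals.

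Glycolysis splits glucose into pyruvate in the cytosol. Lactate dehydrogenase turns pyruvate into lactate, which leaves the cell through monocarboxylate transporters, and pyruvate dehydrogenase kinases hold pyruvate back from the mitochondria. When oxygen is low, the prolyl hydroxylases (Egln genes) no longer mark HIF-1 alpha for destruction, and HIF-1 then binds a short core sequence near genes for glucose transport, glycolysis, mitophagy, angiogenesis and oxygen sensing itself. In T cells the same glycolytic genes are also driven by antigen receptor signals, mTORC1 and Myc, and proliferating T cells are known for high glycolysis.

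The bases upstream of 6 members that were called between the OX40 gates are shown because the core sequence that HIF-1 reads, ACGTG or GCGTG, can be seen in them. Each run is the 250 bases before the gene's start in RefSeq (GRCm38.p6, the mm10 build), 5′ to 3′ on the gene's strand, with capitals marking matches on either strand. A match on the other strand reads backwards, as CACGT or CACGC, and CACGTG is a match on both strands and was counted as 2. RefSeq starts differ for some genes from the gene spans printed below, which are from the GENCODE annotation. By those spans the Ldha and Slc16a3 windows lie inside the gene and the Bnip3 window overlaps its start. The windows lie at chr7:46845554-46845803, plus strand (Ldha), chr3:104638414-104638663, plus strand (Slc16a1), chrX:106186850-106187099, plus strand (Pgk1), chr11:120948817-120949066, plus strand (Slc16a3), chr7:138909507-138909756, minus strand (Bnip3) and chr10:59323046-59323295, plus strand (P4ha1).
Ldha: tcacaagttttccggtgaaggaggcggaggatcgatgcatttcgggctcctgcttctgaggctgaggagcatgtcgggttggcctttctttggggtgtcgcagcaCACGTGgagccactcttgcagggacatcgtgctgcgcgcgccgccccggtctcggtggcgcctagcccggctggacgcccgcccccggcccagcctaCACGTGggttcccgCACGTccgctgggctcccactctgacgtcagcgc
Slc16a1: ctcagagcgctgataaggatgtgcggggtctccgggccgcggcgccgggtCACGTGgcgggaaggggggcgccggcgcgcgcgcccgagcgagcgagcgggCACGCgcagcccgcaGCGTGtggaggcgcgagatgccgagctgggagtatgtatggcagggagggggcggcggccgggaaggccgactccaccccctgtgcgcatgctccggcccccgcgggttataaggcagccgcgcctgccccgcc
Pgk1: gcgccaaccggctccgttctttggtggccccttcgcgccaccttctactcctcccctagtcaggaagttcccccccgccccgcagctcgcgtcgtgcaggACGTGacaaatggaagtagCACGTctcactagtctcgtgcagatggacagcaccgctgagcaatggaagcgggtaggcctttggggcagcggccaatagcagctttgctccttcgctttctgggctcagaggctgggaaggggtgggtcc
Slc16a3: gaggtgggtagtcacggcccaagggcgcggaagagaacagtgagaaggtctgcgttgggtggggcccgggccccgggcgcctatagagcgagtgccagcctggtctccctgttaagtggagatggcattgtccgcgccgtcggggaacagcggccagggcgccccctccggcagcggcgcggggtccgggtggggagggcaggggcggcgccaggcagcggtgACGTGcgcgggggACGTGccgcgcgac
Bnip3: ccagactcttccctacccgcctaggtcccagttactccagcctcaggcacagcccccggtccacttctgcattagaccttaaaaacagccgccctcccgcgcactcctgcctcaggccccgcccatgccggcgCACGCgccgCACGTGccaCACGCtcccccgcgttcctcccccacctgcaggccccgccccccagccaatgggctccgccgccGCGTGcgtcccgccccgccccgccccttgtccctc
P4ha1: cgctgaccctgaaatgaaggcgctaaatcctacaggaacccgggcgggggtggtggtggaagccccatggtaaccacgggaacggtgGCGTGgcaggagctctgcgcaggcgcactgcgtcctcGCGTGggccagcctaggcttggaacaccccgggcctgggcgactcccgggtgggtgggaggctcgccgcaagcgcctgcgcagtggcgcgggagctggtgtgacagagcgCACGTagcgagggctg

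Ldha and Bnip3 each held 5 matches, Slc16a1 held 4, P4ha1 held 3, and Pgk1 and Slc16a3 held 2. Of the 35 measured members, 32 had a window, and 25 of these (78.1%) held at least 1 match, against 53.8% of the 10404 genes of the table with a window and 38.6% of all 27025 windows. Among the members with a window, 17 of the 24 that were higher in tumor in both gates (70.8%) and 8 of the other 8 held a match. ACGTG alone was found in 46.9% of the members' windows and in 21.0% of those of the table's genes. The windows of Tpi1, Hilpda, Pkm, Aldoa, Gpi1, Hk1 and Vegfa held no match, and these genes too were higher in tumor than in spleen Tregs. A match is a stretch of letters and not a measured binding site, and shares were not tested.

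Samples held 22.4 M to 29.6 M estimated counts. Levels are given in CPM, counts scaled by library size, and 3 counts amount to 0.104 to 0.130 CPM. Within each tissue Tnfrsf4 followed the gates. It was at 218 to 298 CPM in spleen OX40minus and 588 to 810 in spleen OX40plus samples. In tumors it was at 1816 to 2159 in OX40minus and 3166 to 3583 in OX40plus samples. Every tumor OX40minus sample thus lay above every spleen OX40plus sample. A gate of the same name does not stand for the same Tnfrsf4 level in tumor and spleen. The 9 genes listed as defining Tregs and T cells, among them Foxp3, Il2ra, Ctla4 and Cd3e, were present in every group. The spleen OX40plus sample of mouse 3 stood apart in Foxp3, at 130 CPM against 32.1 and 31.8 in mice 1 and 2, and in the sum of 11 macrophage and monocyte markers, at 205 CPM against 89.2 and 87.2. Summed within each sample, those markers were at 802 to 1024 CPM in spleen OX40minus, 87.2 to 205 in spleen OX40plus, 229 to 350 in tumor OX40minus and 53.1 to 67.8 in tumor OX40plus samples. In sorted bulk samples, a changed share of cells of one kind and a changed amount of RNA per cell cannot be told apart.

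Tumor Tregs carried far more message for glycolysis than spleen Tregs of the same gate. With limma's linear model and a Benjamini-Hochberg adjusted p under 0.05 as the call, 26 of 35 members were higher in tumor than in spleen OX40plus Tregs and 5 lower, where 64.5% of all tested genes were called, 30.3% as higher and 34.2% as lower. In OX40minus Tregs 27 members were higher and 5 lower, where 59.0% of all genes were called, 29.7% as higher and 29.3% as lower. The same 26 genes were higher in tumor in both gates, counting Ak4, which passed the filter on low values only through the tumor samples, and 3 (Egln1, Ddit4 and Pfkfb3) were lower in both. The members' median log2 fold change was 1.90 in OX40plus and 1.80 in OX40minus Tregs, while the median over all tested genes was -0.13 and -0.03. For 23 members every tumor sample lay above every spleen sample, as did 19.5% of all tested genes.

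Bnip3 (chromosome 7, 138890836 to 138909519), whose product sits on mitochondria and marks them for removal, showed the clearest separation. Its level was 5.59, 4.18 and 5.25 CPM in spleen OX40minus samples of mice 1 to 3 and 6.10, 5.21 and 5.17 in spleen OX40plus samples. In tumors it was 143, 165, 153 and 144 CPM in OX40minus samples of mice 1 to 4 and 258, 253, 222 and 280 in OX40plus samples. Every tumor sample lay far above every spleen sample. The log2 fold change, tumor over spleen, was 5.52 (SE 0.12, adjusted p = 2.81e-14) in OX40plus and 4.93 (SE 0.12, adjusted p = 6.89e-14) in OX40minus Tregs. Bnip3l, its relative with the same task, differed much less, by 0.52 in OX40plus and 0.61 in OX40minus Tregs.

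Hilpda (chromosome 6, 29272488 to 29275446), which encodes a lipid droplet protein that restrains fat breakdown, was at 12.1, 10.7 and 12 CPM in spleen OX40minus and 10.6, 10.2 and 10.1 CPM in spleen OX40plus samples. In tumors it reached 178, 214, 218 and 155 CPM in OX40minus and 183, 213, 206 and 209 CPM in OX40plus samples. The 2 tissues did not overlap, and within each tissue the gates lay close together. Its log2 fold change between tissues was 4.29 (SE 0.12, adjusted p = 1.8e-13) in OX40plus and 4.03 (SE 0.12, adjusted p = 3.34e-13) in OX40minus Tregs. Ak4, a mitochondrial adenylate kinase, was scarce in spleens, from 0.0821 to 0.554 CPM (2 to 14 estimated counts a sample), and at 0.837 to 11.1 CPM in tumors. It was the only member that passed the filter on low values through the tumor samples alone, so its difference between tissues is given as a description only. Vegfa, the angiogenic growth factor, was also scarce: 0.444 to 1.71 CPM in spleens and 2.71 to 8.37 CPM in tumors, with a log2 fold change of 2.65 (SE 0.45) in OX40plus and 2.31 (SE 0.45) in OX40minus Tregs. Ankrd37 and Ndrg1 were higher in tumors as well, by 1.87 and 2.30 in OX40plus and by 2.12 and 1.36 in OX40minus Tregs, and P4ha1, a subunit of the collagen prolyl hydroxylase, by 0.76 and 0.44.

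Not every gene of the low-oxygen list followed. Ddit4, an inhibitor of mTORC1, was lower in tumor Tregs, at 109 to 125 CPM against 247 to 369 CPM in OX40plus and at 90.2 to 123 CPM against 205 to 283 CPM in OX40minus Tregs. The log2 fold changes were -1.26 (SE 0.15) and -1.09 (SE 0.15), with adjusted p of 1.4e-06 and 9.39e-06. Kdm3a, a histone demethylase, was called in neither gate, with intervals of -0.42 to 0.00 in OX40plus and -0.03 to 0.39 in OX40minus Tregs.

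Among the glycolytic enzymes, 12 of 13 measured genes were higher in tumor Tregs in each gate. Tpi1 (chromosome 6, 124810586 to 124814296), triosephosphate isomerase, was at 94.8, 82.5 and 72.3 CPM in spleen OX40minus and 133, 130 and 146 CPM in spleen OX40plus samples. It was at 855, 938, 918 and 824 CPM in tumor OX40minus and 1372, 1481, 1447 and 1524 CPM in tumor OX40plus samples. All 4 groups were separate and stood in that order. The tissue difference in log2 was 3.42 (SE 0.09) in OX40plus and 3.42 (SE 0.09) in OX40minus Tregs, with adjusted p of 1.32e-13 and 1.35e-13. Eno1 (chromosome 4, 150236721 to 150248879), enolase, was at 699, 598 and 553 CPM in spleen OX40minus and 486, 509 and 591 CPM in spleen OX40plus samples. Its tumor values were 2685, 2782, 2687 and 2577 CPM in OX40minus and 3537, 3719, 3571 and 3567 CPM in OX40plus samples. Here the spleen gates overlapped and the tumor gates did not, and the tissue difference was 2.77 (SE 0.10, adjusted p = 1.34e-12) in OX40plus and 2.13 (SE 0.10, adjusted p = 2.84e-11) in OX40minus Tregs.

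The other enzymes that were higher in tumors in both gates had log2 fold changes in OX40plus and OX40minus Tregs as follows: Aldoc (2.09 and 3.01), Aldoa (2.43 and 2.18), Pkm (2.31 and 2.07), Gapdh (2.18 and 2.09), Pfkl (2.05 and 1.99), Pgk1 (2.0 and 1.49), Pfkp (1.90 and 1.80), Hk2 (0.80 and 0.86), Hk1 (0.37 and 0.59) and Gpi1, glucose-6-phosphate isomerase (0.39 and 0.24). The 2 hexokinases and the isomerase, which act first in the pathway, had the 3 smallest of these differences in each gate. Pfkm, the muscle form of phosphofructokinase, had the opposite direction, at 11.7 to 21.4 CPM in tumor OX40plus against 20.1 to 23.5 CPM in spleen OX40plus samples (log2 fold change -0.56, SE 0.21, adjusted p = 0.029). It was not called in OX40minus Tregs. The calls for Hk1 and Pfkm in OX40plus and for Gpi1 in OX40minus Tregs were lost under at least 1 alternative each.

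Among the transporters and the lactate genes, related members differed from each other. Slc2a1, the glucose transporter GLUT1, was at 197 to 296 CPM in tumors and 53.2 to 74.2 CPM in spleens, a log2 difference of 2.17 (SE 0.11) in OX40plus and 2.04 (SE 0.11) in OX40minus Tregs. Slc2a3 (GLUT3) was higher in tumor than in spleen OX40minus Tregs, by 0.87 (SE 0.10, adjusted p = 1.16e-06). In OX40plus Tregs it was at 155 to 209 CPM in tumors and 170 to 184 CPM in spleens and was not called. Ldha (chromosome 7, 46841475 to 46855627), the lactate dehydrogenase subunit that favors lactate, was at 636, 522 and 475 CPM in spleen OX40minus and 575, 573 and 600 CPM in spleen OX40plus samples. Its tumor values were 3297, 3357, 3234 and 2968 CPM in OX40minus and 5621, 6025, 5874 and 6346 CPM in OX40plus samples. The spleen gates overlapped, whereas the tumor gates were far apart, and the tissue difference was 3.35 (SE 0.10, adjusted p = 3.25e-13) in OX40plus and 2.57 (SE 0.10, adjusted p = 6.59e-12) in OX40minus Tregs.

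Ldhb, the subunit that favors pyruvate, went the other way in OX40plus Tregs, from 41.2 to 60.7 CPM in spleens to 18.2 to 32.5 CPM in tumors, a log2 fold change of -0.96 (SE 0.19, adjusted p = 0.000301). Slc16a3 (chromosome 11, 120948480 to 120960868), the lactate exporter MCT4, was at 19.7, 20.2 and 20.8 CPM in spleen OX40minus and 42.1, 36.2 and 52.1 CPM in spleen OX40plus samples. It was at 311, 289, 256 and 254 CPM in tumor OX40minus and 431, 447, 360 and 321 CPM in tumor OX40plus samples, so that no 2 groups overlapped. The tissue difference was 3.17 (SE 0.13, adjusted p = 1.13e-11) in OX40plus and 3.77 (SE 0.13, adjusted p = 2.21e-12) in OX40minus Tregs. Slc16a1, the transporter MCT1, differed by 1.61 (SE 0.14) and 0.89 (SE 0.14). Pdk1, a pyruvate dehydrogenase kinase, was lower in tumor OX40minus Tregs (log2 fold change -0.43, SE 0.13, adjusted p = 0.00821) and was not called in OX40plus Tregs.

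In the oxygen sensor, Hif1a message was at 1307 to 1738 CPM in tumors and 254 to 382 CPM in spleens, a log2 difference of 2.10 (SE 0.11) in OX40plus and 2.54 (SE 0.11) in OX40minus Tregs. These are levels of RNA, and the HIF-1 alpha protein, which is controlled by its breakdown, was not measured. The 2 prolyl hydroxylases moved apart. Egln3, itself a HIF target, was higher in tumors by 1.66 (SE 0.14) and 1.86 (SE 0.14), whereas Egln1, the main oxygen sensor, was lower, with -1.46 (SE 0.19) in OX40plus and -1.91 (SE 0.19) in OX40minus Tregs. Egln1 stood at 17.8 to 34.4 CPM in tumors and 69.5 to 97.5 CPM in spleens. The PFKFB enzymes, which set the level of an activator of phosphofructokinase, were not higher in tumors either: Pfkfb3 was lower, with -0.83 (SE 0.16) and -0.89 (SE 0.16), and Pfkfb4, at 4.43 to 14.3 CPM over all samples, was called lower only in OX40minus Tregs, where the adjusted p was 0.0495. That call was lost in 12 of the 14 fits that left out 1 sample and without the filter, and without the tumor OX40minus sample of mouse 1 the log2 fold change moved from -0.71 to -0.45 (adjusted p = 0.151).

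Markers of other cells moved with the tissue too. The 6 melanocyte markers summed to 69.3 to 184 CPM in tumors and 12.6 to 22.4 CPM in spleens, and 5 of 6 were called higher in tumor Tregs in each gate. The sixth, Mitf, was lower in tumor OX40minus Tregs (0.178 to 1.97 CPM against 2.46 to 5.18 CPM in spleen OX40minus samples) and not called in OX40plus Tregs. Tyrp1 and Dct, which define pigment cells, reached 18.1 to 63.6 and 16.6 to 51.3 CPM in tumor samples against at most 0.288 and 1.47 CPM in spleens. Of 9 genes known to be induced by tissue digestion, 7 were higher and 1, Fosb, was lower in tumor OX40plus Tregs. In tumor OX40minus Tregs 8 were higher and none was lower. The 5 B cell markers were lower in tumors in both gates, with sums of 393 to 584 CPM in spleens and 2.43 to 6.29 CPM in tumors. Of 11 macrophage and monocyte markers, 7 were lower and 1 higher in tumor OX40plus Tregs, and 9 were lower in tumor OX40minus Tregs. Of 19 mitosis genes 18 were higher in tumors in each gate, with a median log2 fold change of 1.76 in OX40plus and 1.25 in OX40minus Tregs. Mki67 was the exception. It was lower in tumor OX40minus Tregs, at 125 to 187 CPM against 169 to 260 CPM in spleen OX40minus samples. In OX40plus Tregs Mki67 was not called. The part of these cells, of cell division and of digestion in the tissue differences was not tested, and samples from tumor and spleen differ in all of them at once.

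**Figure D1:**
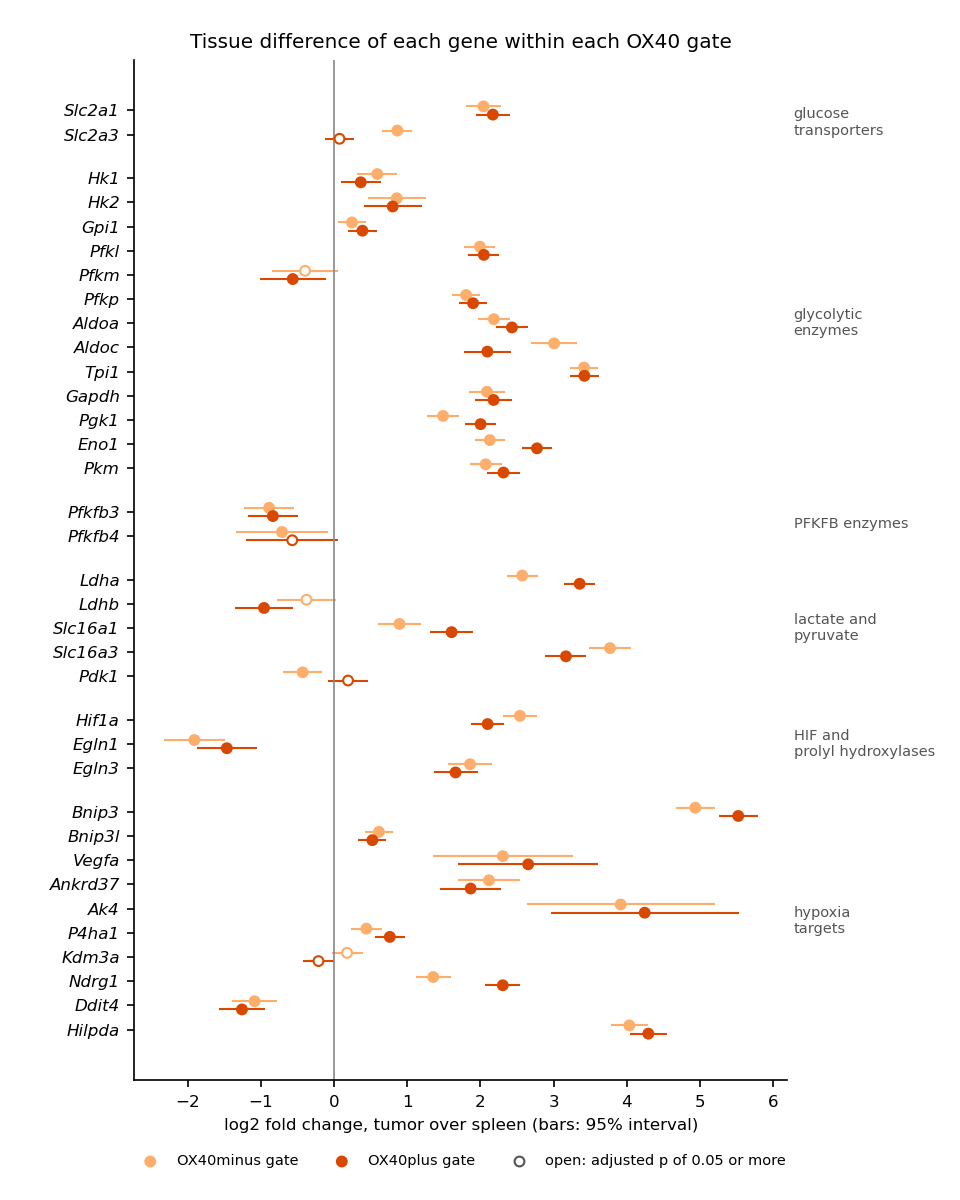
Log2 fold change of each of the 35 measured genes, tumor over spleen, in the OX40minus and OX40plus gates, grouped by role, with 95% intervals and open circles for genes not called. Bnip3 (5.52 and 4.93), Hilpda (4.29 and 4.03) and Slc16a3 lie far to the right, as does Ak4, which passed the filter on low values only through the tumor samples, and Egln1, Ddit4 and Pfkfb3 lie left of 0 in both gates.

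Within tumors, the OX40plus gate carried more message for glycolytic enzymes, Ldha and both lactate transporters than the OX40minus gate, while the glucose transporter Slc2a3 was lower. Of the 35 members, 13 were higher in OX40plus Tregs and 5 lower, where 38.5% of all tested genes were called, 18.6% as higher and 20.0% as lower. The members' median log2 fold change was 0.11, and that of all tested genes was -0.07. By role, 8 of 13 enzymes and 3 of 5 lactate and pyruvate genes were higher, whereas of the 10 measured low-oxygen genes 2 were higher and 3 lower. The low-oxygen counts lie near the shares over all tested genes. No gene of the oxygen sensor and neither PFKFB gene was called. The count of lower members fell to 3 without the OX40plus sample of mouse 3.

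Genes of lactate production and export were among those that differed most. Ldha, with the values above, averaged 5967 ± 303 CPM in tumor OX40plus (SD, n = 4) and 3214 ± 172 CPM in tumor OX40minus samples (n = 4), a 1.86-fold difference (log2 fold change 0.89, SE 0.09, adjusted p = 2.73e-06), and was higher in all 4 mice. Slc16a1 (chromosome 3, 104638668 to 104658462) was at 83.1, 110, 126 and 104 CPM in tumor OX40plus samples of mice 1 to 4 and at 41.9, 47.2, 58.8 and 48.3 CPM in OX40minus samples. Every OX40plus sample lay above every OX40minus sample, and the difference was 2.15-fold (log2 fold change 1.1, SE 0.13, adjusted p = 7.65e-06). Slc16a3 was higher by 0.48 (SE 0.12, adjusted p = 0.00529). Ldhb stood at 18.2 to 32.5 CPM in OX40plus and 28.2 to 29.2 CPM in OX40minus samples and was not called, nor was Pdk1, at 84.5 to 104 and 80.5 to 122 CPM.

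Of the 13 measured glycolytic enzymes, 8 were higher in tumor OX40plus Tregs and 1 was lower. Tpi1 averaged 1456 ± 64.3 CPM in OX40plus and 884 ± 53.2 CPM in OX40minus samples (SD, n = 4 each), a 1.65-fold difference (log2 fold change 0.72, SE 0.08, adjusted p = 9.01e-06). Pgk1 (chromosome X, 106187100 to 106203699), phosphoglycerate kinase, the first step that yields ATP, was at 744, 761, 745 and 907 CPM in OX40plus and 466, 475, 481 and 428 CPM in OX40minus samples. Mouse 4 had both the highest OX40plus and the lowest OX40minus value, and the groups were apart also among mice 1 to 3. The log2 fold change was 0.77 (SE 0.09, adjusted p = 1.32e-05). Pkm (chromosome 9, 59656368 to 59679375), pyruvate kinase, was at 6054, 6167, 5601 and 5027 CPM in OX40plus and 3686, 3744, 3704 and 3332 CPM in OX40minus samples. Its lowest values in both gates were those of mouse 4, and within each mouse OX40plus was higher (log2 fold change 0.66, SE 0.10, adjusted p = 6.35e-05). The table gives 1 row for Pkm, so its M1 and M2 splice forms were not told apart.

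Gapdh (log2 fold change 0.55), Eno1 (0.42), Aldoa (0.39) and Pfkp (0.27) were also higher, with adjusted p from 0.0009 to 0.0171, and each was higher in 4 of 4 mice. Hk2, the inducible hexokinase, was at 18.9 to 26.4 CPM in OX40plus and 13.3 to 19.2 CPM in OX40minus samples, which overlap slightly (log2 fold change 0.47, SE 0.17, adjusted p = 0.0413), and its call was lost with plain library totals (adjusted p = 0.0553) and with the tumor samples fitted alone (0.0682). Pfkp was lost without the OX40plus sample of mouse 2. Hk1, Gpi1, Pfkl and Pfkm were not called, and Gpi1 and Pfkl had 95% intervals of -0.06 to 0.31 and -0.02 to 0.37. Aldoc, the brain form of aldolase, was the exception among the enzymes, at 82.4, 63.1, 66.3 and 66.2 CPM in OX40plus and 96.0, 89.7, 87.4 and 83.7 CPM in OX40minus samples. The log2 fold change was -0.37 (SE 0.14, adjusted p = 0.0467), and with the mouse as a block the adjusted p was 0.0633. Aldoc was lower in 4 of 4 mice, but its call was lost in 11 of the 14 fits that left out 1 sample, as was that of Hk2 in 6.

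The glucose transporters did not rise with the enzymes. Slc2a3 (chromosome 6, 122727809 to 122801640) was at 191, 209, 188 and 155 CPM in tumor OX40plus samples of mice 1 to 4 and at 296, 347, 326 and 326 CPM in OX40minus samples. The groups were far apart and OX40plus was the lower in each mouse (log2 fold change -0.81, SE 0.09, adjusted p = 4.79e-06). Slc2a1 was at 259, 283, 249 and 197 CPM in OX40plus and 265, 296, 269 and 260 CPM in OX40minus samples and was not called, with an interval of -0.37 to 0.07.

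Of the 10 measured low-oxygen genes, 2 were higher and 3 lower in the tumor OX40plus gate. Over all tested genes 18.6% were higher and 20.0% lower, so the counts are near the background, and the genes are described singly. Bnip3 was 1.67-fold higher in OX40plus samples (log2 fold change 0.74, SE 0.11, adjusted p = 0.000109), with no overlap among the values above. P4ha1 (chromosome 10, 59323296 to 59373304) was lower, at 145, 121, 114 and 121 CPM in OX40plus and 193, 180, 191 and 214 CPM in OX40minus samples (log2 fold change -0.64, SE 0.09, adjusted p = 4.82e-05). All 4 mice showed the same direction. Kdm3a was lower by the same pattern, averaging 79.4 ± 3.56 CPM against 118 ± 13.1 CPM (SD over 4 mice in each gate), with a log2 fold change of -0.56 (SE 0.09, adjusted p = 0.000178), and Bnip3l was lower by a smaller amount (-0.27, SE 0.08, adjusted p = 0.016), a call lost without the OX40plus sample of mouse 3. Ak4 was at 6.86 to 11.1 CPM in OX40plus and 0.837 to 5.53 CPM in OX40minus samples (log2 fold change 1.77, SE 0.56, adjusted p = 0.0198). Without the OX40minus sample of mouse 2, the lowest, its log2 fold change was 1.23 and the adjusted p was 0.0641. Ndrg1, Ddit4, Ankrd37, Hilpda and Vegfa were not called. Hif1a stood at 1307 to 1733 CPM in OX40plus and 1539 to 1738 CPM in OX40minus samples, with an interval for the difference of -0.31 to 0.11.

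The tumor gates differed in other measures as well. All of 19 mitosis genes were higher in the OX40plus gate, and their sum was 4314 to 4913 CPM there and 1713 to 2216 CPM in tumor OX40minus samples. Of 11 macrophage and monocyte markers 10 were lower in the OX40plus gate, as were 4 of 6 dendritic cell markers (sums of 37.9 to 67.3 against 134 to 193 CPM) and 7 of 9 genes of the digestion list. Their part in the differences was not tested. None of the 6 melanocyte markers was called between the tumor gates, and their sums overlapped, at 69.3 to 184 CPM in OX40plus and 92.5 to 138 CPM in OX40minus samples.

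Spleen Tregs showed fewer differences between the gates, and these did not include Ldha. Of the 35 members, 5 were higher in spleen OX40plus Tregs (Slc16a3, Tpi1, Aldoc, Gapdh and Pkm) and 3 lower (P4ha1, Pdk1 and Ndrg1), where 4.39% of all tested genes were higher and 3.60% lower (7.98% in either direction). The median log2 fold change was 0.12 over the members and 0.01 over all tested genes. The 3 lower members and Slc16a3 and Tpi1 were called under every alternative, while Aldoc, Gapdh and Pkm were each lost under some. The count of higher members was 2 with the mouse as a block. It was also 2 when any of 4 spleen samples was left out: OX40plus mouse 1, OX40plus mouse 3, OX40minus mouse 2 or OX40minus mouse 3. Without the sample of mouse 3 that stood apart, OX40plus, the genes lost were Aldoc (adjusted p = 0.211), Gapdh (0.138) and Pkm (0.0937).

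Slc16a3 averaged 43.5 ± 8.03 CPM in spleen OX40plus and 20.2 ± 0.513 CPM in spleen OX40minus samples (SD, n = 3 each), a 2.12-fold difference (log2 fold change 1.09, SE 0.14, adjusted p = 0.000137). Tpi1 was higher by 0.72 (SE 0.10, adjusted p = 0.000207) and was 0.72 higher in tumors as well. Gapdh (chromosome 6, 125161715 to 125166467), the enzyme often used as a reference gene, was at 859, 860 and 1069 CPM in OX40plus and 815, 641 and 584 CPM in OX40minus samples of mice 1 to 3. The groups did not overlap, though mouse 1 differed little between its gates (log2 fold change 0.46, SE 0.13, adjusted p = 0.0328, and 0.115 with the mouse as a block). Pkm was at 1110, 1101 and 1230 CPM in OX40plus and 963, 845 and 781 CPM in OX40minus samples (log2 fold change 0.41, SE 0.11, adjusted p = 0.0283, and 0.0758 with the block). Aldoc (chromosome 11, 78322968 to 78327781) was at 16.7, 12.5 and 20.2 CPM in OX40plus and 12.1, 11.1 and 10.1 CPM in OX40minus samples (log2 fold change 0.54, SE 0.16, adjusted p = 0.0474, and 0.0786 with the block). Its call was lost in 11 of the 14 fits that left out 1 sample, that of Pkm in 5 and that of Gapdh in 4.

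The 3 lower genes had values well apart between the gates. P4ha1 was at 71.1, 72.0 and 77.6 CPM in spleen OX40plus and 158, 141 and 132 CPM in spleen OX40minus samples, so that OX40plus Tregs had about the same level in all 3 mice, with a log2 fold change of -0.96 (SE 0.10, adjusted p = 2.72e-05). Pdk1 (chromosome 2, 71873224 to 71903858) was at 79.3, 83.5 and 85.5 CPM in OX40plus and 138, 148 and 151 CPM in OX40minus samples (log2 fold change -0.82, SE 0.14, adjusted p = 0.00108). Ndrg1 (chromosome 15, 66929318 to 66969640), a stress-induced gene of cell differentiation, was at 24.9, 31.9 and 27.7 CPM in OX40plus and 47.2, 44.8 and 50.5 CPM in OX40minus samples (log2 fold change -0.76, SE 0.12, adjusted p = 0.000696). In none of these genes did the gates overlap.

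Ldha averaged 583 ± 15.4 CPM in spleen OX40plus and 544 ± 82.3 CPM in spleen OX40minus samples (SD, n = 3 each), with an interval for the log2 difference of -0.12 to 0.34. Hif1a was at 372, 382 and 319 CPM in OX40plus and 254, 288 and 306 CPM in OX40minus samples, without overlap but not called (log2 fold change 0.34, SE 0.12, adjusted p = 0.0942). Slc16a1 (0.39, adjusted p = 0.142), Hk2 (0.53, adjusted p = 0.143) and Slc2a1 (-0.28, adjusted p = 0.212) were likewise not called. Slc2a3 lay at 170 to 184 CPM in OX40plus and 169 to 189 CPM in OX40minus samples. The spleen gates also differed in macrophage and monocyte markers, 10 of 11 of which were lower in OX40plus Tregs, and in mitosis genes, 16 of 19 of which were higher, with sums of 1236 to 2142 against 842 to 1097 CPM. Their part in the spleen differences was not tested.

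**Figure D2:**
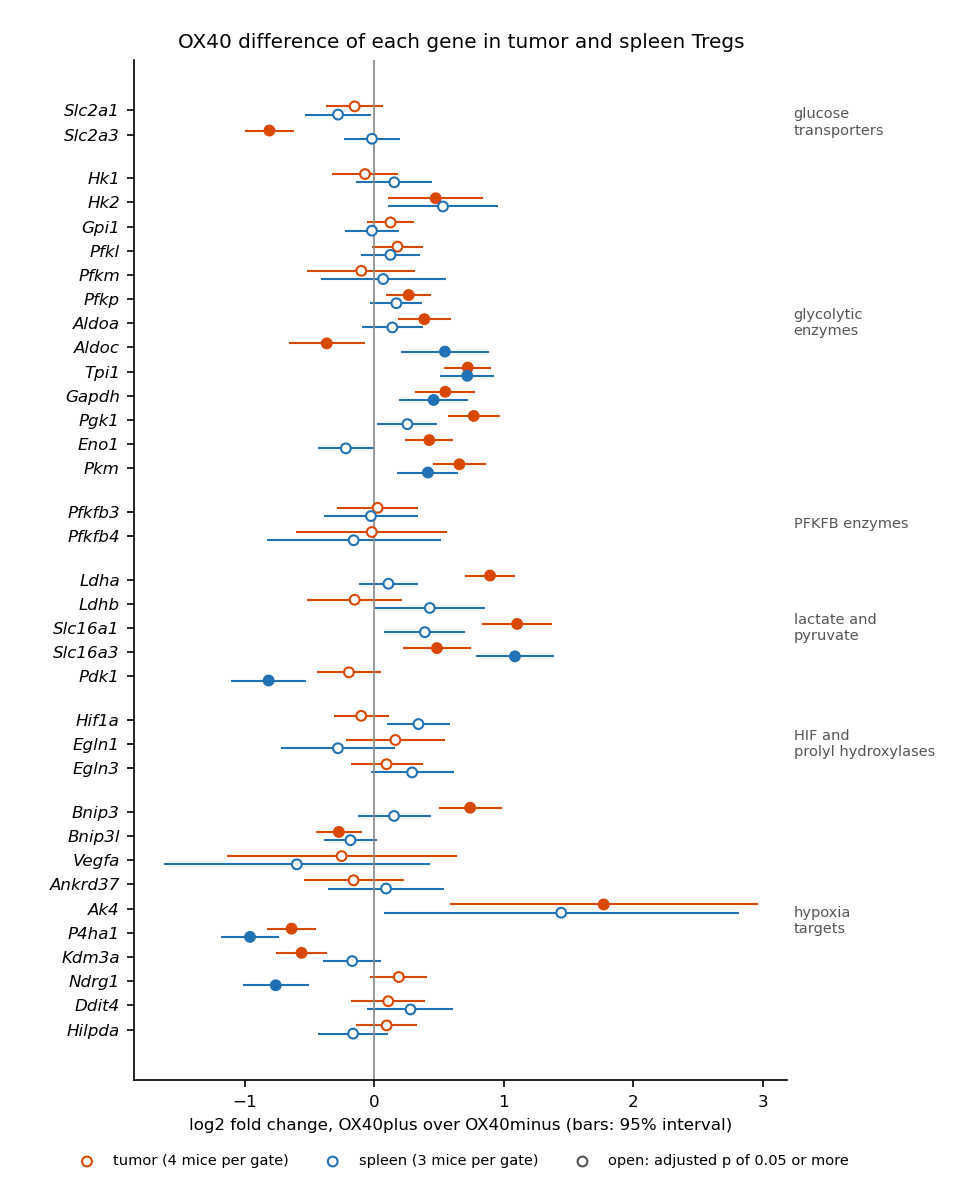
Log2 fold change of each of the 35 measured genes, OX40plus over OX40minus, in tumor (4 mice per gate) and spleen (3 mice per gate), grouped by role, with 95% intervals and open circles for genes not called. Ldha lies at 0.89 in tumor and 0.11 in spleen, Slc2a3 at -0.81 and -0.02, and Aldoc on opposite sides of 0.

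The difference between the gates itself differed between tumor and spleen for 10 of the 35 members, tested as an interaction: 7 were higher and 3 lower, where 4.53% of all tested genes were higher and 6.38% lower (10.9% in either direction). Higher means that OX40plus over OX40minus was larger in tumors. This interaction uses the samples of both OX40 comparisons and is no independent evidence beside them. Ndrg1 had the smallest adjusted p: it was at 158, 144, 138 and 117 CPM in tumor OX40plus and 115, 124, 117 and 130 CPM in tumor OX40minus samples, which overlap, while in spleens OX40plus was lower. The difference of the 2 log2 fold changes was 0.95 (SE 0.16, adjusted p = 0.00147). Ldha (0.78, SE 0.14, adjusted p = 0.00242) and Eno1 (0.64, SE 0.13, adjusted p = 0.00651) had a gate difference in tumors that exceeded the one in spleens, where neither was called. Slc2a3 differed in the other direction (-0.79, SE 0.14, adjusted p = 0.00179). Aldoc was lower in tumor OX40plus and higher in spleen OX40plus Tregs (-0.91, SE 0.21, adjusted p = 0.0124), although each of its 2 gate differences lost its call with the block.

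Slc16a1 (0.71), Pgk1 (0.51), Pdk1 (0.62) and Bnip3 (0.59) also had a higher interaction, with adjusted p from 0.0278 to 0.0421, and Slc16a3 had a lower one (-0.60, adjusted p = 0.04998). These 5 calls were each lost under several alternatives. Of the 14 fits that left out 1 sample, 11 lost the call of Slc16a3, 10 that of Bnip3 and 8 that of Pdk1. The call of Slc16a1 was lost in 7 of them and that of Pgk1 in 6. With the mouse as a block, those of Pgk1 (adjusted p = 0.0966), Pdk1 (0.0863) and Bnip3 (0.0741) were lost. The count of higher members was 4 with the block. It was 3 without the spleen OX40minus sample of mouse 1, and 4 without tumor OX40minus mouse 1, spleen OX40plus mouse 1 or 2, or spleen OX40minus mouse 2 or 3. Of the genes whose gate difference was called in both tissues, 4 had no interaction call: Tpi1 had an interval for the interaction of -0.27 to 0.28, Pkm of -0.07 to 0.55, Gapdh of -0.26 to 0.44 and P4ha1 of 0.03 to 0.61 (adjusted p = 0.156).

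**Figure D3:**
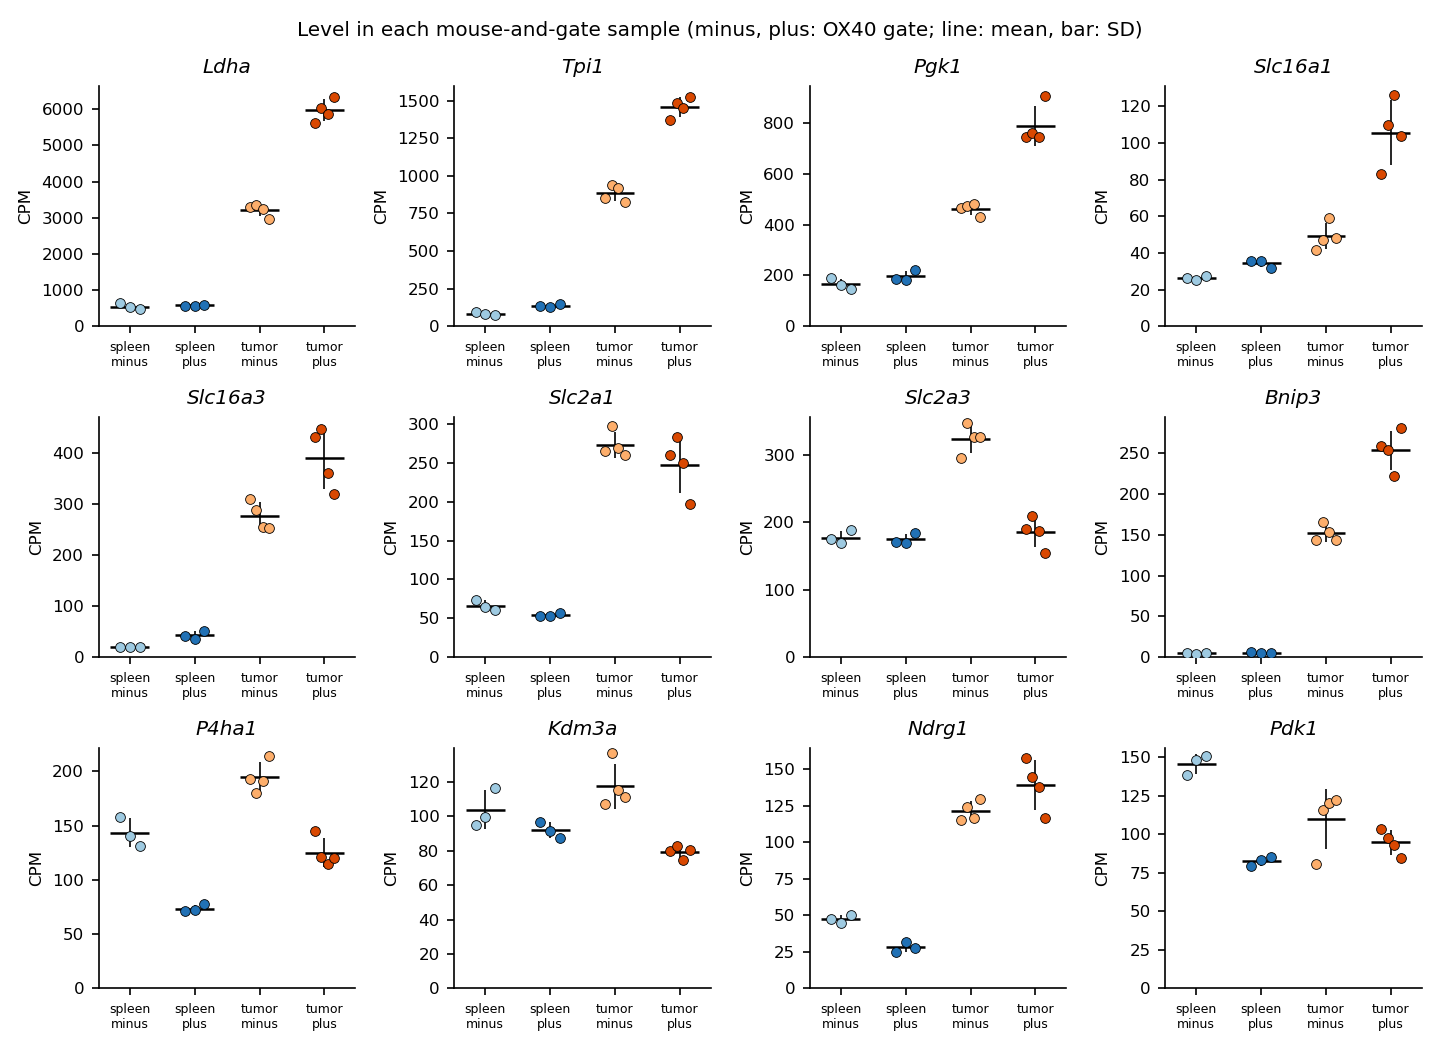
CPM of 12 genes in each of the 14 samples, by tissue and OX40 gate, with the group mean as a line and the SD as a bar. Ldha, Tpi1, Pgk1, Slc16a1 and Bnip3 are highest in the 4 tumor OX40plus samples, whereas Slc2a3, P4ha1 and Kdm3a have their highest mean in the tumor OX40minus samples.

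Over the 4 groups, 18 members had their highest mean in tumor OX40plus, 10 in tumor OX40minus, 3 in spleen OX40plus and 4 in spleen OX40minus Tregs. Over all tested genes the shares were 30.0%, 22.1%, 22.3% and 25.6% in the same order. In 14 members, among them Ldha, Tpi1, Gapdh, Pgk1, Pkm, Aldoa and Bnip3, the group means stood in the order spleen OX40minus, spleen OX40plus, tumor OX40minus, tumor OX40plus, as they did in 15.8% of all tested genes. The 13 enzymes together summed to 3892 ± 476 CPM in spleen OX40minus (SD, n = 3), 4509 ± 380 CPM in spleen OX40plus (n = 3), 14195 ± 575 CPM in tumor OX40minus (n = 4) and 20125 ± 609 CPM in tumor OX40plus samples (n = 4). As a share of all estimated counts this was 0.364% to 0.431%, 0.451% to 0.504%, 1.35% to 1.45% and 1.88% to 2.03% in the same order. These shares did not overlap between the groups, but the sums in CPM of the spleen gates did, at 3484 to 4415 CPM in OX40minus and 4270 to 4947 CPM in OX40plus samples. The sum counts fragments and is not corrected for gene length.

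**Figure D4:**
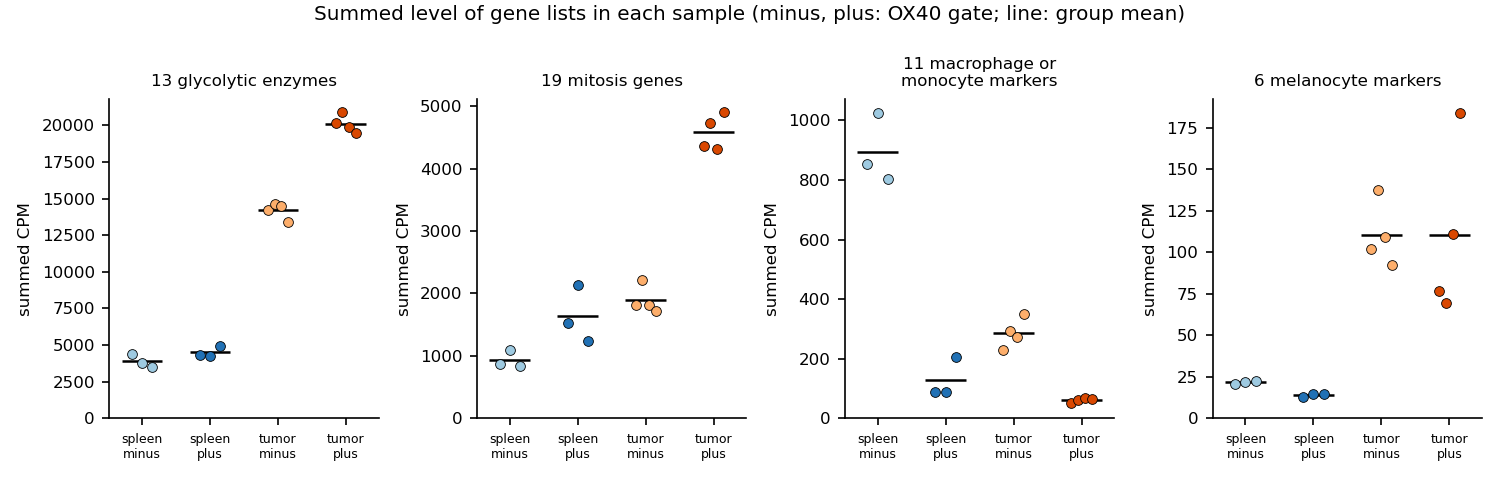
Summed CPM of the 13 glycolytic enzymes, 19 mitosis genes, 11 macrophage or monocyte markers and 6 melanocyte markers in each of the 14 samples, by tissue and OX40 gate, with the group mean as a line. The enzyme sum is 19504 to 20941 CPM in tumor OX40plus and 13376 to 14656 CPM in tumor OX40minus samples, the mitosis sum is also highest in tumor OX40plus, and the melanocyte sums of the tumor gates overlap.

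Members that do the same task were compared as log2 ratios within each sample, in 8 pairs and both tissues, with a two-sided exact permutation test over samples. These ratios are of CPM and not per length, so that only their change between groups can be read. In tumors the Ldha/Ldhb ratio was 8.27, 7.64, 7.88 and 7.61 in OX40plus and 6.87, 6.87, 6.83 and 6.67 in OX40minus samples, a mean difference of 1.04. Slc2a1/Slc2a3 was 0.35 to 0.44 in OX40plus and -0.33 to -0.16 in OX40minus samples (difference 0.66), and Aldoc/Aldoa was -5.05 to -4.69 and -4.25 to -4.05 (difference -0.75). None of these 3 pairs overlapped between the gates. Each had an exact permutation p of 0.0286, the smallest that 4 against 4 samples allow, and an adjusted p of 0.0762 over the 8 pairs, so no pair passed the correction. Slc16a3/Slc16a1 was lower (difference -0.62, exact permutation p = 0.0571), and Hk2/Hk1 was higher by 0.55 (exact permutation p = 0.0857). In spleens the smallest p that 3 against 3 samples allow is 0.1, and no pair could be called. There Slc16a3/Slc16a1 was 0.03 to 0.71 in OX40plus and -0.41 to -0.31 in OX40minus samples, and Ldha/Ldhb was 3.31 to 3.80 and 3.82 to 3.90. The signs of these differences were opposite to those in tumors, and the difference between tissues was not tested for the ratios.

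**Figure D5:**
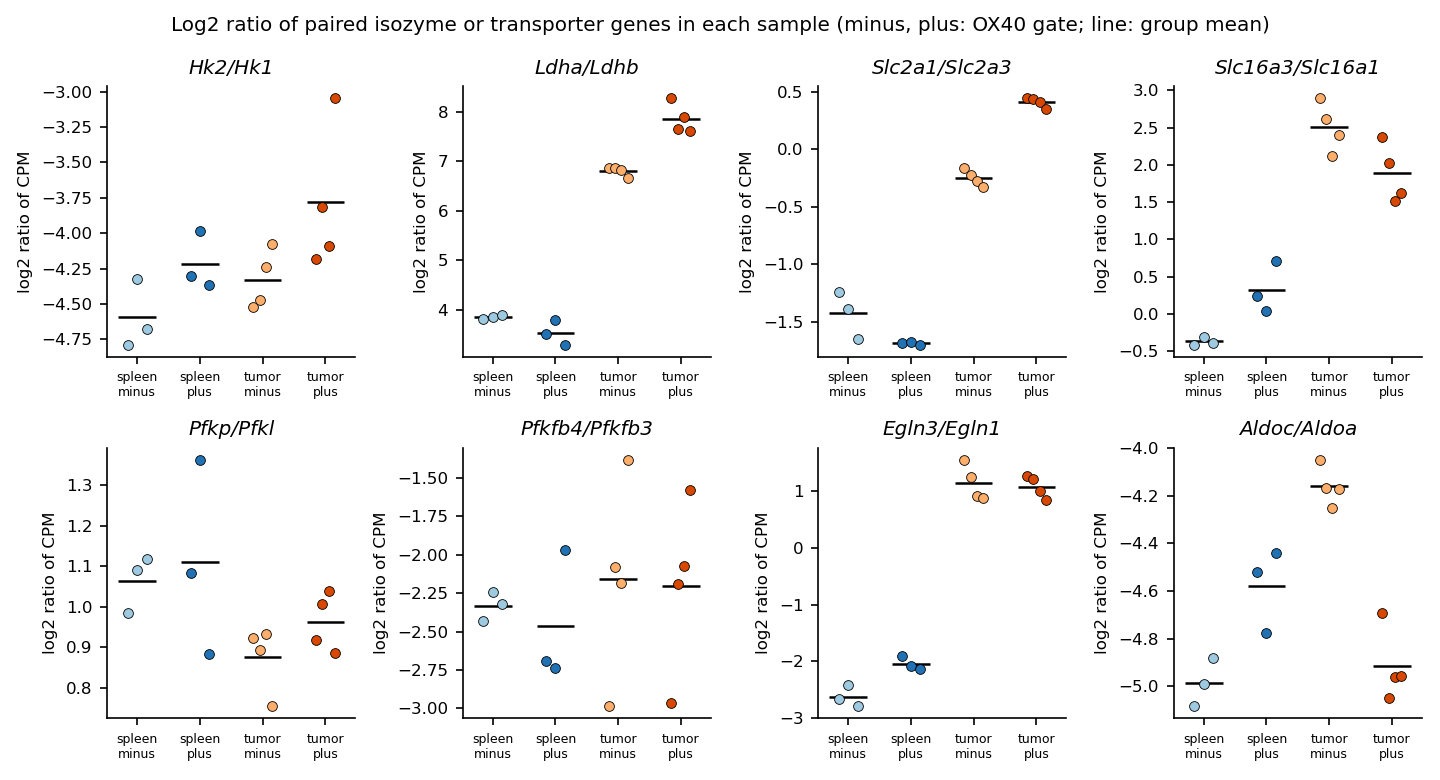
Log2 ratio of 8 pairs of related genes in each of the 14 samples, by tissue and OX40 gate, with the group mean as a line and its own axis for each pair. The means of Ldha/Ldhb and Slc2a1/Slc2a3 are highest in tumor OX40plus samples, those of Aldoc/Aldoa and Slc16a3/Slc16a1 in tumor OX40minus samples, and Pfkfb4/Pfkfb3 overlaps between all groups.

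The remaining genes of these pathways did not all follow the members. Of 17 further genes of sugar metabolism, 3 were higher and none lower in tumor OX40plus against OX40minus Tregs: Eno3, the muscle enolase (log2 fold change 1.83, SE 0.15), Galk1, galactokinase (1.29, SE 0.10), and Pgm2 (0.31, SE 0.08). Over all tested genes 18.6% were higher and 20.0% lower in that comparison, so the share that was higher is near the background. In spleens Galk1 (0.55, SE 0.12) and Pfkfb1 (0.99, SE 0.28) were higher, and Hk3 (-2.62, SE 0.67) and Adpgk (-0.44, SE 0.13) lower. Over all tested genes 4.39% were higher and 3.60% lower in the spleen comparison. Of 10 genes that govern the entry of pyruvate into mitochondria, Pdk3 (0.48, SE 0.10) and Pdp2 (0.78, SE 0.25) were higher and Pdk2 (-1.24, SE 0.25) was lower in tumor OX40plus Tregs, and Pdk3 was higher in spleens (0.38, SE 0.11). Of 6 genes of the pentose phosphate pathway 1, Tkt (0.26, SE 0.08), was higher in tumor OX40plus Tregs and none was called in spleens. For the pyruvate and pentose phosphate lists, too, the share that was higher in tumors is near the background.

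A list of 29 further genes held parts and regulators of the HIF pathway besides genes induced by low oxygen. Of these 29, 4 were higher and 8 lower in tumor OX40plus Tregs. Over all tested genes 18.6% were higher and 20.0% lower, so that the counts lie near the background. Mif, a cytokine, was higher (1.21, SE 0.13), as were Car12, a carbonic anhydrase (1.70, SE 0.40), and P4hb (0.50, SE 0.08), whereas Bhlhe40, a transcriptional repressor (-1.12, SE 0.13), Zfp395 (-1.05, SE 0.17) and Narf (-0.70, SE 0.12) were lower. In spleens 2 were higher and 1 lower, where 4.39% of all tested genes were higher and 3.60% lower. These counts too lie near the background. Bhlhe40 had the opposite direction there (1.16, SE 0.15), Mif was higher (0.63, SE 0.15), and Hmox1, heme oxygenase, was lower (-3.22, SE 0.20), at 14.7 CPM against 137 CPM. Hmox1 and Hk3 are also expressed in macrophages, whose markers were lower in the same samples, and the part of macrophages in these values was not tested.

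The list of 21 upstream regulators had 3 genes higher and 6 lower in tumor OX40plus Tregs, also near the shares over all tested genes (18.6% and 20.0%). Myc, a transcription factor that drives glycolytic genes in activated T cells, averaged 209 ± 31.5 CPM in tumor OX40plus and 117 ± 6.85 CPM in tumor OX40minus samples (SD over 4 mice in each gate), with a log2 fold change of 0.82 (SE 0.10, adjusted p = 9.24e-06). Its partner Max (0.96, SE 0.12) and Rheb, the activator of mTORC1 (0.33, SE 0.08), were higher too. Lower were Txnip, an inhibitor of glucose uptake (-1.63, SE 0.09, adjusted p = 6.37e-09), Mxd1, a Myc antagonist (-0.79, SE 0.10), and Sesn1 (-0.86, SE 0.11). In spleens Txnip was lower (-0.71, SE 0.11) and Irf4, a factor of activated T cells, higher (0.61, SE 0.17), and Myc was not called, at 153 ± 6.44 and 144 ± 8.38 CPM (SD, n = 3 each). These 2 spleen calls are also near the background (4.39% higher and 3.60% lower). The median log2 fold change of the 21 genes was -0.20 in tumors and 0.00 in spleens, against -0.07 and 0.01 over all tested genes.

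Some values carry an uncertainty of counting. Related genes or copies named Aldoart1, Aldoart2, Eno1b, Pgk1-rs7, Gapdh-ps15, Ldha-ps2 and Tpi-rs11 are annotated in the mouse genome and have no row in the table, so the share of their reads in Aldoa, Eno1, Pgk1, Gapdh, Ldha and Tpi1 is unknown. In 12 of the 35 members, among them Bnip3, Tpi1, Gapdh, Aldoa, Pfkp and Ndrg1, an exon overlaps an exon of a gene on the other strand in the GENCODE annotation. In Hif1a, Pkm and Pfkm an exon overlaps an exon of another gene on the same strand. Whether the counting used strand is not given in the sources used here.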

How the data were processed

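RNA-seq libraries were made by the submitters from sorted mouse Tregs. Reads passed through bcl2fastq 2.19, kallisto and limma on build mm10, per the submitters' processing notes. The deposited values are log2 CPM, counts with 0.5 added and scaled to the library, as the values themselves show: genes without reads share the lowest value of a column, from which its scaled library size and then the estimated counts were solved. The step from transcripts to genes, the scaling factor, the filter on genes and the use of strand are not stated in what was used here.

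The 2 libraries of each mouse and gate were nearly as close as sampling noise allows (median chi-square per gene 0.495 to 0.578, where sampling gives 0.455, against 1.43 to 12.8 between mice). They were averaged and counted as 1 sample. Genes reaching 0.382 CPM in 3 or more samples and 15 estimated counts in total were tested, 12512 in all, in 1 limma fit over 14 samples (limma 3.58.1, R 4.3.3) with 1 term per group, a mean-variance trend and no block. Calls are at a Benjamini-Hochberg adjusted p under 0.05 over all tested genes. Log2 fold changes are on the scale with 0.5 added and understate changes of scarce genes. CPM means and SDs are from the estimated counts. The design first assumed counts and a count model, and the log2 values took limma instead. On simulated data the fit recovered 29% of log2 changes of 0.5 and 71% of log2 changes of 1 in the tumor comparison, and 19% and 56% in the spleen comparison. Only 100 of 12512 genes were changed by each amount there, whereas 4819 and 999 were called in the measured comparisons. The adjusted p depends on how many genes change, so these percentages do not give the recovery in the measured data.

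The titles name the mouse, so OX40plus and OX40minus samples of a number within a tissue come from the same animal. Their deviations from the group means had correlations across genes of -0.108 to 0.0602 in tumors and -0.162 to 0.112 in spleens. The fit with the mouse as a block was an alternative. Whether a number names the same mouse in tumor and spleen is not stated.

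The members and all gene lists were chosen with earlier results of these data known. Values in every sample are given for the called members with the 8 smallest adjusted p of each OX40 comparison and the 5 smallest of the interaction and of each tissue comparison, and for pathway lists up to 3 called genes per direction are named. Chromosome positions are from GENCODE vM21 (mm10), and upstream sequences from RefSeq.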

Additional observations from a re-analysis of the deposited data

Results flagged for a closer look

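The difference between OX40plus and OX40minus Tregs was not the same in tumors and spleens for 10 members, by the interaction term of the limma fit at a Benjamini-Hochberg adjusted p under 0.05. On the log2 scale, tumor minus spleen, it was 0.95 for Ndrg1, 0.78 for Ldha, 0.71 for Slc16a1, 0.64 for Eno1, 0.62 for Pdk1, 0.59 for Bnip3 and 0.51 for Pgk1. It was -0.91 for Aldoc, -0.79 for Slc2a3 and -0.60 for Slc16a3. Over all tested genes 10.9% had such a call. The calls of Ndrg1, Ldha, Eno1, Aldoc and Slc2a3 held under every alternative, and the other 5 did not. The 3 genes whose gate difference had opposite signs in the 2 tissues and was called in at least 1 of them are described with their values in the report: Aldoc, Ndrg1 and Eno1.

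A single sample lay far from the other 3 of its group in 4 of 70 groups of 4 tumor samples checked, where chance gives about 1 in 20. The measure is the gap to the nearest sample as a share of the group's whole range. For Pgk1 it was 0.899 for the highest tumor OX40plus sample (mouse 4), for Pkm 0.860 for the lowest tumor OX40minus sample (mouse 4), for Pdk1 0.850 for the lowest tumor OX40minus sample (mouse 1) and for Aldoc 0.836 for the highest tumor OX40plus sample (mouse 1). Groups of 3 spleen samples were not checked.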

How the results depend on the processing

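Alternatives were plain library totals, relative log expression factors, limma-voom weights, 2 counts added, no filter, a filter at 1 CPM, the mouse as a block, each tissue fitted alone, and leaving out each of the 14 samples. Of the called members, 13 of 18 in the tumor OX40 comparison, 5 of 8 in the spleen OX40 comparison, 5 of 10 in the interaction, 29 of 31 between tissues in OX40plus and 30 of 32 in OX40minus Tregs were called under every alternative. None reversed. Among members that were not called, the sign changed under some alternative for 8 of 17, 5 of 27, 9 of 25, 1 of 4 and 0 of 3 in the same order. Some alternative called 2, 2, 2, 2 and 3 of them. These were Ndrg1 and Pdk1 between the tumor gates, Hif1a and Slc16a1 between the spleen gates, and Hif1a and Kdm3a in the interaction. Between tissues they were Kdm3a and Pfkfb4 in OX40plus and Kdm3a, Ldhb and Pfkm in OX40minus Tregs.

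With the mouse as a block, the pairing left 2 members higher in the spleen OX40 comparison and 4 higher in the interaction, against 5 and 7 without it. It changed no other count of members by over 1.5 times. Fitting spleen samples alone called 1849 of all genes, against 999. When a sample was left out, members lower in the tumor OX40 comparison numbered 3 to 5, members higher in the spleen OX40 comparison 2 to 6, and members higher in the interaction 3 to 7. All genes called ranged from 641 to 1191 in the spleen OX40 comparison, with the lowest counts without OX40plus mouse 1 (641) and OX40minus mouse 2 (649), and from 766 to 1628 in the interaction, lowest without the same 2 spleen samples (766 and 825). The highest counts were those without tumor OX40plus mouse 4 (1191) and without tumor OX40plus mouse 1 (1628).

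Uncalled ratio differences changed sign when a sample was left out: Pfkfb4/Pfkfb3 ranged from -0.321 to 0.214 in tumors and from -0.382 to 0.00132 in spleens, Egln3/Egln1 from -0.156 to 0.0656 in tumors, and Pfkp/Pfkl from -0.0809 to 0.159 in spleens. The cause was not tested. Plain library totals moved the median of all genes between tissues in OX40plus Tregs from -0.13 to -0.23. Depth limits Ak4 and Vegfa in spleens, where they had 2 to 14 and 11.2 to 44.3 estimated counts a sample.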
